A study of Mus musculus with 12 samples.

Results

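The genes described here are those encoded by the mitochondrial genome of the mouse, taken as every row of the deposited day 3 and day 7 tables whose chromosome is MT. They number 35 of the 54367 genes in each table: 13 mRNAs and 22 tRNA genes. The mitochondrial rRNAs were not analysed here. The samples were retinas of C57BL/6 wildtype mice, 8 to 12 weeks old. The right eye of each mouse had been burned with a 532 nm laser (75 µm spots of 0.1 s) at 4 positions, and the left eye, not lasered, was the control from the same animal. Retinas were taken 3 or 7 days later, so that 12 libraries fall into 4 groups of 3: lasered day 3, control day 3, lasered day 7 and control day 7. All groups share strain, genotype, anaesthesia and pupil dilation. The labels do not say that libraries of equal number come from 1 mouse, and the p-values below measure only the spread between these samples.

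Mitochondrial DNA is transcribed from both strands into long RNAs that span many genes. tRNAs sit between most of the mRNAs and rRNAs, and cutting them out releases the other transcripts. The mRNAs, most of which then receive a short poly(A) tail, encode core subunits of respiratory complexes I, III and IV and of the ATP synthase (complex V). All other subunits are encoded in the nucleus and imported. In the retina, photoreceptor inner segments are especially rich in mitochondria.

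On day 3 the mitochondrial mRNAs made up a smaller part of the signal in every lasered library than in any control, led by the complex IV subunits mt-Co3 and mt-Co1 and by mt-Cytb of complex III. The summed tRNA signal stood the other way. By log2 difference, not by their part in that sum, the leucine tRNA genes mt-Tl1 and mt-Tl2 stood highest above control. Taken gene by gene, the tRNA genes as a class lay near all tested genes on day 3. On day 7 lasered replicates 1 and 3 lay below the controls in most mRNAs, while lasered replicate 2 lay above them in all 13. No mitochondrial gene passed the limma test at an adjusted p of 0.05 on either day.

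The sequences that bear on these values are shown first, all on mm10 coordinates and read from the GENCODE M21 transcripts. The leucine tRNA genes had the smallest adjusted p-values of the members on day 3, and together with a cysteine and a histidine tRNA gene they had an unadjusted p under 0.05 on day 7. They are printed on their own strand with the anticodon in capitals.
mt-Tl1: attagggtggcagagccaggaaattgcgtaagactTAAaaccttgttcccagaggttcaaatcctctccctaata
mt-Tl2: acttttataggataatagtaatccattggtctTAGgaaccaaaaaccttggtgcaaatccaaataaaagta
mt-Tc: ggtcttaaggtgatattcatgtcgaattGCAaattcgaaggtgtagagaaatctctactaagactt
mt-Th: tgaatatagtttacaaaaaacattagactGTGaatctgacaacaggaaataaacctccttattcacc
The gene mt-Tl1 lies at chrMT:2676-2750 and mt-Tl2 at chrMT:11671-11741, both on the plus strand. The first reads the leucine codons UUA and UUG and directly precedes mt-Nd1. The second reads the other leucine codon family and directly precedes mt-Nd5. The gene mt-Tc lies on the minus strand at chrMT:5192-5257, and mt-Th on the plus strand at chrMT:11546-11612.

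Further sets show where reads cannot be placed with certainty. A stretch of chromosome 1 between positions 24611535 and 24616197 holds 7 unprocessed pseudogenes that are copies of mitochondrial mRNAs at 99% identity or more. Of these, 2 differ from their mitochondrial gene by a single base within the aligned stretch, printed here in capitals. In Gm29216 that stretch starts at base 10 of the pseudogene.
mt-Co1: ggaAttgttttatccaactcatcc
Gm29216: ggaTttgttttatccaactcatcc
mt-Nd3: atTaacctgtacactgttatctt
Gm28438: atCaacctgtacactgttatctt
Counted from 1 at the first base of the mitochondrial gene, with the mitochondrial base first, the differences are A1066T in Gm29216 and T3C in Gm28438. The windows lie at chrMT:6390-6413 and chrMT:9459-9481 on the plus strand, and at chr1:24616165-24616188 and chr1:24613097-24613119 on the minus strand. The other set is the overlap of the ATP synthase genes, in which mt-Atp8 ends inside mt-Atp6. They share these 43 bases at chrMT:7927-7969 on the plus strand, with the start codon of mt-Atp6 in capitals.
mt-Atp8 and mt-Atp6: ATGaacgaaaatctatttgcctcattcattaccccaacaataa
Of the 35 genes, 16 overlap another mitochondrial gene by at least 1 base, and reads in such bases could be split between neighbours.

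All levels below are the deposited signal, scaled to gene length and depth. The authors called it TPM, but columns summed to 953049 to 1045986. The day 3 libraries held between 9281987 and 12515853 reads assigned to genes, as recovered from the smallest steps of the values. The day 7 libraries held between 23886208 and 31092787. The 14 rod markers were abundant in all libraries. Their summed signal was 30538 to 37466 in controls and 12991 to 32640 in lasered retinas on day 3, and 66280 to 72126 and 50137 to 63389 on day 7. Lasered day 3 replicate 1 stood apart, with the lowest rod and cone sums and a neutrophil marker sum of 1017 against 2.45 to 49.6 in the other day 3 libraries. Lens crystallins were high in lasered day 3 replicate 2 (sum 439) and lasered day 7 replicate 1 (1276) and at most 7.97 elsewhere. In these bulk libraries fewer cells of a type and less RNA per cell cannot be told apart.

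The share of all signal held by the 13 mRNAs on day 3 was 22.4%, 22.2% and 20.6% in control replicates 1, 2 and 3. In lasered replicates 1, 2 and 3 it was 15.2%, 16.9% and 18.5%. The groups did not overlap, and every lasered library was below every control. The means were 21.7% ± 0.997 in controls and 16.9% ± 1.65 in lasered retinas (SD, n = 3 each), a difference of -4.83 percentage points. Against the sum of protein-coding genes alone the difference was -7.48 points. Leaving out 1 library at a time gave -5.66 to -4.01 points. With 3 against 3 libraries a permutation test could not go below 0.10, and none was run on these sums.

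The share of the 22 tRNA genes on day 3 was 0.303%, 0.361% and 0.326% in controls and 0.490%, 0.447% and 0.416% in lasered retinas. Here every lasered library was above every control. These small shares rest on 1170 to 2009 reads per library, against 597713 to 1221947 reads in the mRNAs. The means were 0.330% ± 0.029 and 0.451% ± 0.037 (SD, n = 3 each).

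**Figure D1:**
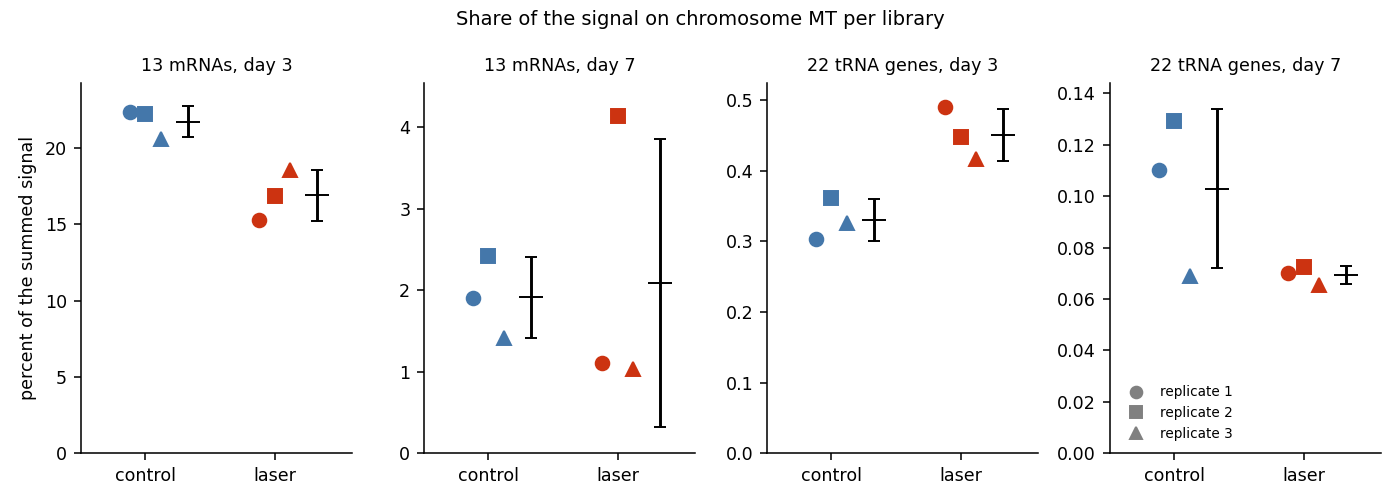
Percent of the summed signal held by the 13 mitochondrial mRNAs and the 22 tRNA genes (y axis, each panel with its own scale from 0) in control and lasered retinas; symbols mark replicates, bars the mean and SD. On day 3 lasered libraries lie below controls for mRNAs (15.2% to 18.5% against 20.6% to 22.4%) and above them for tRNAs, and on day 7 lasered replicate 2 stands at 4.13% for mRNAs.

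Divided by complex, the day 3 shares were as follows. The 3 complex IV mRNAs held 10.2%, 10.04% and 9.09% of the signal in controls and 6.29%, 7.38% and 7.74% in lasered retinas. Complex III, represented by mt-Cytb alone, held 2.65%, 2.44% and 2.19% against 1.46%, 1.68% and 1.98%. Complex V held 6.20%, 7.11% and 6.18% against 4.94%, 5.15% and 5.91%. For each of these 3 complexes the lasered libraries lay below all controls. The 7 complex I mRNAs held 3.35%, 2.61% and 3.11% in controls and 2.55%, 2.65% and 2.92% in lasered retinas, and here the groups overlapped. The ratio of complex IV to complex I signal was 3.04, 3.85 and 2.93 in controls and 2.46, 2.78 and 2.65 in lasered retinas, lower in every lasered library. All 3 complex IV mRNAs but only some complex I mRNAs have near-identical nuclear copies. On either day the complex shares and this ratio may therefore count unlike parts of their reads.

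Complex IV, cytochrome c oxidase, passes electrons to oxygen, and mt-Co3 encodes one of its 3 mitochondrial core subunits. Its day 3 signal was 51413, 54763 and 45097 in controls and 27517, 32872 and 37309 in lasered retinas. All lasered values lay below all controls. The log2 difference was -0.64 (SE 0.16), with an unadjusted p of 0.00476 and an adjusted p of 0.0977 (limma, Benjamini-Hochberg over 16786 genes). The catalytic subunit gene mt-Co1 read 30063, 23825 and 23886 in controls and 16862, 17466 and 19585 in lasered retinas, again without overlap. Its log2 difference was -0.52 (SE 0.15; limma adjusted p = 0.114). The gene mt-Co2, whose product takes up electrons from cytochrome c, read 20966, 26439 and 22150 against 17821, 20641 and 20314. Its groups did not overlap either, but they were close, and the log2 difference was -0.24 (limma adjusted p = 0.351).

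Cytochrome b, the complex III subunit encoded by mt-Cytb, read 26653, 25516 and 21952 in day 3 controls and 14408, 16132 and 19766 in lasered retinas. The groups did not overlap, and lasered replicate 3 was nearest to the controls. The log2 difference was -0.57 (SE 0.16; limma adjusted p = 0.116). The ATP synthase membrane subunits mt-Atp8 and mt-Atp6 had log2 differences of -0.39 and -0.25, with limma adjusted p of 0.201 and 0.281. The signal of mt-Atp8 was 38400, 49013 and 38792 in controls and 29418, 30424 and 36492 in lasered retinas. That of mt-Atp6 was 24012, 25371 and 23124 against 19401, 19117 and 22531. In both genes all lasered libraries lay below all controls.

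Complex I takes electrons from NADH, and its mitochondrial subunits form the proton-pumping arm. Among its 7 mRNAs only mt-Nd1 had groups that did not overlap on day 3, at 13849, 11360 and 11803 in controls and 8703, 8880 and 11159 in lasered retinas. Its log2 difference was -0.37 (SE 0.15; limma adjusted p = 0.209). The other 6 had log2 differences of -0.05 (mt-Nd2), -0.10 (mt-Nd3), -0.19 (mt-Nd4), -0.06 (mt-Nd4l), -0.17 (mt-Nd5) and 0.02 (mt-Nd6), all with overlapping groups. The gene mt-Nd6 is the only mRNA encoded on the minus strand. It read 2387, 1779 and 2346 in controls and 2177, 2195 and 2181 in lasered retinas, so that the 3 lasered values lay inside the control range.

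As a group, 12 of the 13 mRNAs had a log2 difference below 0 on day 3, where 31.8% of all tested genes did. The median of the 13 was -0.24, beside 0.16 for all tested genes. Groups did not overlap, with laser lower, in 7 of the 13, against 3.82% of all genes. An unadjusted p under 0.05 with laser lower was reached by 5 of the 13, against 2.29% of all genes. That count was 0 with quantile normalization, without a filter on low values and in the joint fit of 12 libraries. It was 8 with median-of-ratios rescaling, and 3 when control replicate 1, control replicate 2, lasered replicate 1 or lasered replicate 2 was left out. A term for replicate number (the replicate block) also gave 3, and leaving out control replicate 3 gave 4. None passed the adjusted threshold, at which limma called 24 genes higher (0.143%) and 1 lower (0.00596%) of 16786. How many mRNAs lay below 0 depended on the scaling: 13 after median-of-ratios rescaling (median -0.47, all genes -0.03) and 13 with equal sums outside chromosome MT (median -0.27, all genes 0.13). After quantile normalization 7 of 13 lay below 0 (median -0.02, all genes -0.07), so that the mRNAs no longer stood below the other genes. That scaling gives every library the same set of values, and the 13 mRNAs held 15.2% to 22.4% of the day 3 signal. A joint drop of such abundant genes can be removed by it, so this setting cannot decide whether they were lower. The largest differences shrank there to -0.15 (mt-Co3), -0.16 (mt-Co1), -0.16 (mt-Cytb) and -0.07 (mt-Nd1), and 6 genes that were lower turned to values of 0.05 to 0.10 while mt-Nd6 turned to -0.02. The split of all genes at an unadjusted p under 0.05 moved as well, from 3476 higher and 385 lower to 1997 and 1462 with median-of-ratios rescaling and 1745 and 1737 with quantile normalization.

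**Figure D2:**
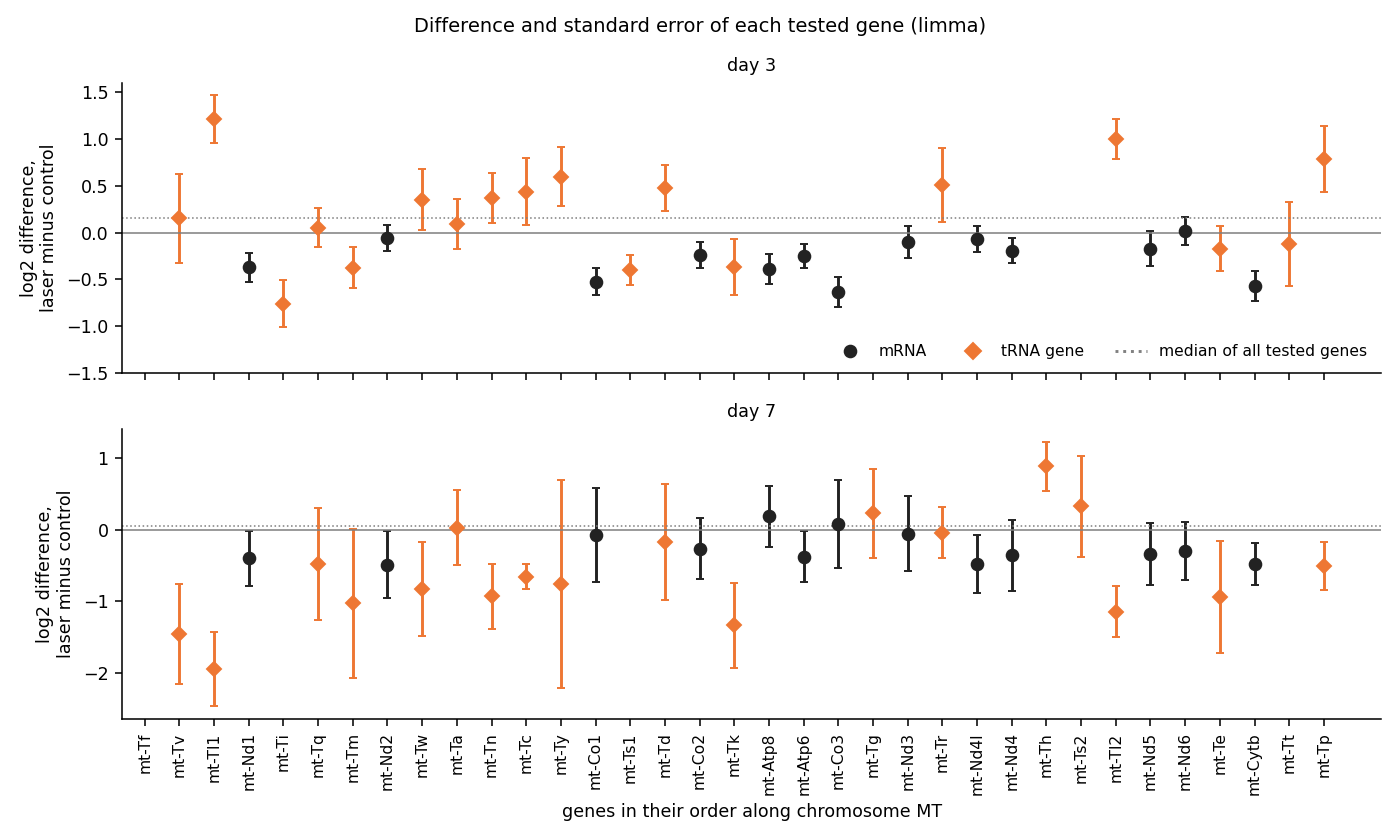
Log2 difference, laser minus control, with its standard error (y axis) for each tested mitochondrial gene in genome order (x axis) on day 3 (top) and day 7 (bottom); black circles are mRNAs, orange diamonds tRNA genes, the dotted line the median of all tested genes. On day 3, 12 of 13 mRNAs lie below 0 (7 of 13 after quantile normalization) and mt-Tl1 and mt-Tl2 stand highest; on day 7 the same leucine tRNA genes lie below 0, at -1.94 and -1.15.

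Mature tRNAs carry no poly(A) tail, and the libraries were made from poly(A) RNA, and the tRNA genes are only 59 to 75 bases long. On day 3, 10 of the 22 tRNA genes had at most 10 reads in every library, and 7 had over 100 reads in at least 1. The 2 genes mt-Tf and mt-Tg had 0 reads in all 6 libraries, which allows a signal of up to 6.55 to 8.90 in a gene of their 68 bases (3 reads, counting error only). Of the 18 tRNA genes tested, 12 had a log2 difference above 0 and 6 below, with a median of 0.25. Of all tested genes 31.8% lay below 0, with a median of 0.16, so the tRNA genes as a class lay near all genes. Groups did not overlap with laser higher in 2 (27.7% of all genes) and with laser lower in 2 (3.82%). The proline tRNA gene mt-Tp, the most abundant over all libraries, read 538, 1257 and 506 in controls and 1170, 1508 and 1002 in lasered retinas. Its groups overlapped, with control replicate 2 above lasered replicates 1 and 3 (log2 difference 0.79, limma adjusted p = 0.239).

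The leucine tRNA gene mt-Tl1 read 300, 525 and 537 in day 3 controls and 1261, 893 and 944 in lasered retinas. All lasered libraries were above all controls, from 609 reads in the controls together and 1323 in the lasered libraries together. The log2 difference was 1.22 (SE 0.26), with an unadjusted p of 0.00198 and a limma adjusted p of 0.0915. The gene mt-Tl2, chosen for description after its values were seen, read 17.2, 18.8 and 26.7 against 45.3, 33.8 and 48.7. Its groups did not overlap either, and its reads were 27 and 50 over the 3 libraries of each group. The log2 difference was 1.00 (SE 0.21; limma adjusted p = 0.0915). These were the smallest adjusted p-values of any mitochondrial gene on day 3.

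The tRNA genes with laser lower and no overlap on day 3 were mt-Ts1 and mt-Ti. The serine tRNA gene mt-Ts1, among the 3 tRNA genes of highest mean signal, read 655, 720 and 561 against 553, 416 and 498. Its highest lasered value lay just below its lowest control value (log2 difference -0.40, limma adjusted p = 0.194). The isoleucine gene mt-Ti had 1 to 4 reads per library and lies within the counting floor. In all, limma put 9 of the 31 tested mitochondrial genes at an unadjusted p under 0.05 on day 3, and 0 past the adjusted threshold. Of these 9, 7 were lower (2.29% of all genes were lower at that level) and 2 higher (20.7%). The count of 0 held under each alternative setting run on day 3, with a smallest adjusted p of 0.0526 under library weights.

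On day 7 the mitochondrial share of signal was much smaller in both groups. The 13 mRNAs held 1.91%, 2.41% and 1.42% in controls and 1.10%, 4.13% and 1.03% in lasered retinas. Lasered replicates 1 and 3 were below every control, and lasered replicate 2 was above every control. The means were 1.91% ± 0.498 and 2.09% ± 1.77 (SD, n = 3 each), a difference of 0.174 points that turned to -0.848 without lasered replicate 2 and to -0.0734 without control replicate 3. The tRNA genes held 0.110%, 0.129% and 0.0691% in controls and 0.0703%, 0.0724% and 0.0654% in lasered retinas. The groups overlapped, and within each replicate number the lasered value was the lower.

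**Figure D3:**
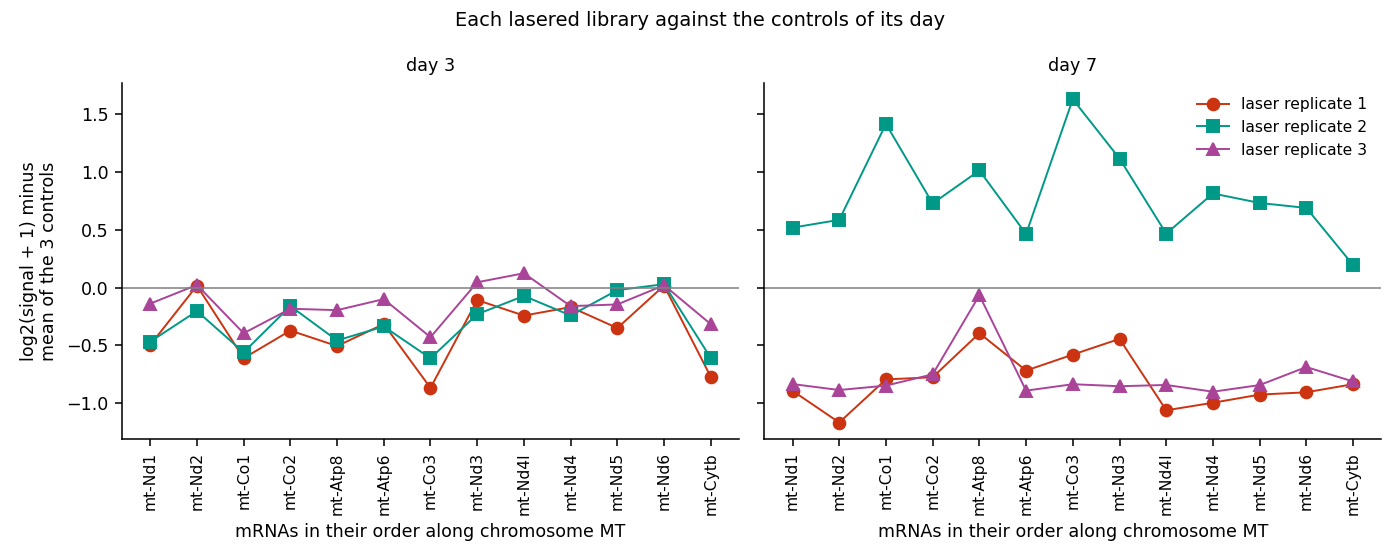
Log2(signal + 1) of each of the 13 mRNAs (x axis, genome order) in each lasered library minus the mean of the 3 controls of that day (y axis), day 3 left and day 7 right. On day 7 replicates 1 and 3 run below 0 in all 13 mRNAs (median -0.84 each) and replicate 2 above 0 in all 13 (median 0.73).

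Lasered day 7 replicate 2 lay farthest above the control mean in mt-Co3 (1.63 on the log2 scale) and mt-Co1 (1.42), while mt-Co2 stood at 0.73, below mt-Nd3 (1.12), mt-Atp8 (1.01) and mt-Nd4 (0.81). The gene mt-Co3 read 3582, 5099 and 4648 in controls and 2939, 13608 and 2460 in lasered retinas. The gene mt-Co1 read 5299, 7111 and 2759 against 2709, 12551 and 2610. In both, replicate 2 was the highest library of the day and the other lasered libraries were below all controls. Of the mRNAs, lasered replicate 2 lay nearest to the control mean in mt-Cytb (0.19 on the log2 scale). That gene read 1181, 1150 and 908 in controls and 600, 1228 and 610 in lasered retinas. The ratio of complex IV to complex I signal was 2.38, 2.84 and 2.74 in controls and 2.82, 4.02 and 2.68 in lasered retinas, highest in the same library. That library also had the lowest rod marker sum of the day (50137), while its lens sum was 0.560, and the part of either in the result was not tested. Control replicate 2 was the highest of its own group in the mRNA share.

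With all 6 libraries, 11 of the 13 mRNAs had a log2 difference below 0 on day 7 (38.5% of all genes did), and the median was -0.35 beside 0.06 for all genes. The groups of all 13 overlapped, and no mRNA reached an unadjusted p under 0.05. The values ran from -0.49 in mt-Nd2 to 0.18 in mt-Atp8, with SE of 0.29 to 0.65, and each limma adjusted p was 1.0. Individually the 7 complex I mRNAs stood at -0.40 (mt-Nd1), -0.49 (mt-Nd2), -0.06 (mt-Nd3), -0.48 (mt-Nd4l), -0.36 (mt-Nd4), -0.35 (mt-Nd5) and -0.30 (mt-Nd6). The complex IV mRNAs stood at -0.08 (mt-Co1), -0.27 (mt-Co2) and 0.07 (mt-Co3), mt-Cytb at -0.49, and mt-Atp6 at -0.38. The sign of mt-Co3 and of mt-Co1 changed when 1 library was left out, and that of mt-Co3 also with quantile normalization (-0.08) and median-of-ratios rescaling (-0.03). Without lasered replicate 2, all 13 mRNAs lay below 0 with a median of -0.82 (all genes -0.01), and 10 of them had an unadjusted p under 0.05 with laser lower, as did 235 of all 15263 genes in that fit. Without lasered replicate 1 instead, 8 of 13 lay below 0 (median -0.04), and without lasered replicate 3, 9 of 13 (median -0.10), in both cases with 0 at that p. Without lasered replicate 2 none passed the adjusted threshold, with a smallest limma adjusted p of 0.154 in mt-Cytb (log2 difference -0.83).

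**Figure D4:**
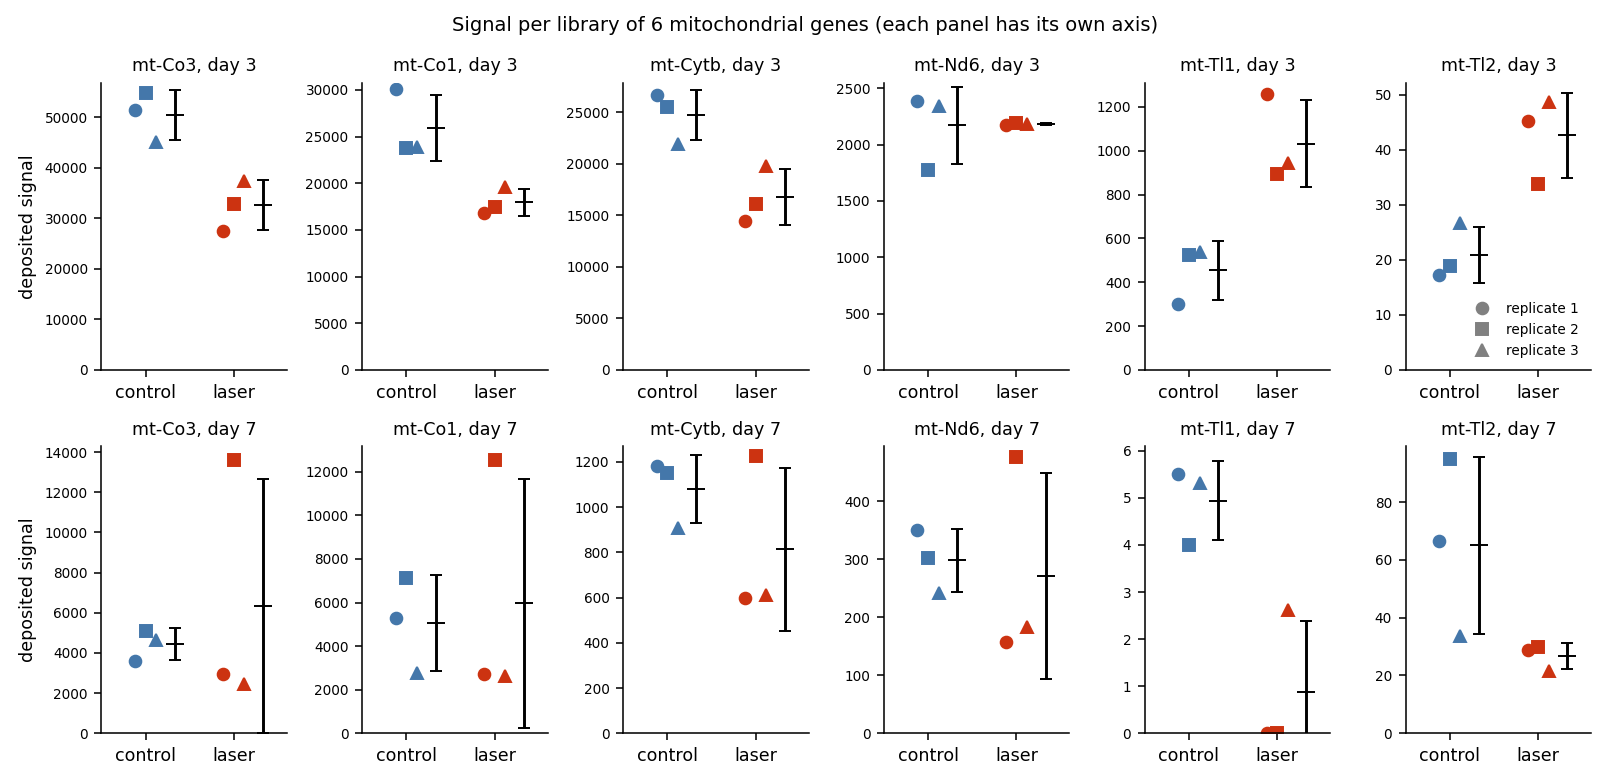
Deposited signal (y axis, each panel with its own scale from 0) of mt-Co3, mt-Co1, mt-Cytb, mt-Nd6, mt-Tl1 and mt-Tl2 in control and lasered retinas on day 3 (top) and day 7 (bottom); symbols mark replicates, bars the mean and SD, cut at 0 where they would pass it. On day 3 all panels except mt-Nd6 show groups that do not overlap; on day 7 lasered replicate 2 is the highest library in the 4 mRNAs, and both leucine tRNA genes are lower in every lasered library.

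On day 7, 38.5% of all tested genes had a log2 difference below 0 (median 0.06). Of the 22 tRNA genes, 18 were tested that day, and 14 of these lay below 0 (median -0.71). Here 13 of the 22 had at most 10 reads in every library, and mt-Tf, mt-Ts1 and mt-Tt had 0 reads in all 6. Groups did not overlap with laser lower in 4 (2.11% of all genes) and with laser higher in 1 (6.78%). The 4 were mt-Tl1, mt-Tl2, mt-Tc and mt-Tk, and the other was mt-Th. The cysteine tRNA gene mt-Tc, the best covered of them, read 271, 290 and 216 in controls and 197, 141 and 155 in lasered retinas. Every lasered value lay below every control, from 468 and 308 reads per group (log2 difference -0.66, SE 0.18, limma unadjusted p = 0.00732). The histidine tRNA gene mt-Th read 33.5, 33.1 and 40.0 against 41.5, 115 and 60.1, with lasered replicate 2 highest (log2 difference 0.88, limma unadjusted p = 0.035).

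Both leucine tRNA genes were lower in every lasered library than in any control on day 7. The gene mt-Tl2 read 66.4, 94.9 and 33.7 in controls and 28.7, 29.9 and 21.6 in lasered retinas, from 129 and 53 reads. Its groups did not overlap (log2 difference -1.15, SE 0.36, limma adjusted p = 0.785). The gene mt-Tl1 was near the counting limit, with 4, 3 and 3 reads in controls and 0, 0 and 2 in lasered libraries, where 3 reads are worth a signal of 3.89 to 5.06. Its fitted log2 difference of -1.94 (limma adjusted p = 0.55) depends on the pseudocount, being -4.05 with 0.1 and -0.47 with 10. In all, 4 of the 31 tested mitochondrial genes had an unadjusted p under 0.05 on day 7, 3 lower (0.795% of all genes) and 1 higher (3.14%). None passed the adjusted threshold, at which limma called 37 genes higher (0.237%) and 1 lower (0.00641%) of 15592. With library weights mt-Tl1 passed alone (limma adjusted p = 0.00591). With the replicate block 5 of the 31 were lower and 1 higher at an unadjusted p under 0.05 (limma). At that level 308 of all 15592 genes were lower and 895 higher.

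Whether the laser effect differed between the days was tested with a day-by-laser interaction term fitted to all 12 libraries. The log2 difference of day 7 minus that of day 3 was -3.16 for mt-Tl1 (SE 0.60, unadjusted p = 0.000229) and -2.15 for mt-Tl2 (SE 0.45, unadjusted p = 0.000515), each with a limma adjusted p of 0.382. For mt-Tl1 the day 7 side of this contrast rests on 10 and 2 reads. The proline, asparagine and cysteine genes mt-Tp, mt-Tn and mt-Tc followed at -1.30, -1.30 and -1.10, with limma adjusted p of 0.474 to 0.52. These 5 were the mitochondrial genes with an unadjusted p under 0.05, all lower, where 8.43% of all 17611 tested genes were lower and 0.96% higher. Of the mRNAs none reached an unadjusted p of 0.05, and their values ran from -0.44 in mt-Nd2 to 0.71 in mt-Co3. None of the 34 mitochondrial genes tested passed the adjusted threshold, and limma called no gene of any kind (0.0% in either direction). Library weights gave 3 (mt-Tl1, mt-Tl2 and mt-Tv, all lower), and leaving out lasered day 7 replicate 3 gave 1, mt-Tl1 (limma adjusted p = 0.00946).

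The levels in control retinas also differed between the days. These levels come from tables that were normalized separately, and day and table cannot be told apart. The mean control signal was higher on day 3 in all 13 mRNAs, by a median of 10.04 times. The smallest ratio was 1.45 in mt-Nd3 (2027 against 1395) and the second largest 22.9 in mt-Cytb. The gene mt-Atp8 stood out with 42068 on day 3 and 43.4 on day 7, a ratio of 970, while its overlapping neighbour mt-Atp6 had 24169 and 1646. Whether the placement of mt-Atp8 reads differed between the tables was not tested. On day 3 mt-Co3 had the highest mean control signal of the mRNAs (50425), followed by mt-Atp8, and mt-Nd3 the lowest. On day 7 mt-Co1 led (5056), followed by mt-Co3 (4443), and mt-Atp8 was lowest.

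Among tRNA genes the control levels went both ways between the days. The aspartate gene mt-Td had 450 on day 3 and 1.53 on day 7, and the alanine gene mt-Ta 257 and 1.01. The serine gene mt-Ts1 had 645 on day 3 and 0 reads on day 7. In contrast the asparagine gene mt-Tn had 52.1 and 288, the cysteine gene mt-Tc 51.3 and 259, and the histidine gene mt-Th 0.773 (1 read in 3 libraries) and 35.6. The 8 tRNA genes on the minus strand held 51.4% to 66.0% of the tRNA signal in the 6 day 3 libraries. On day 7 they held 82.3% to 85.7% in 5 libraries and 68.5% in lasered replicate 2. The search for nuclear copies described below could not find copies of genes as short as these. Both mt-Ts1 and mt-Td lie between mt-Co1 and mt-Co2, which have chromosome 1 copies, so the placement of their reads is uncertain too.

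In 7 of the 13 mRNAs, reads within the matching stretch could belong to a chromosome 1 copy. Likewise, reads counted for the copy could belong to the mitochondrial gene. The stretch spans 483 of the 1545 bases of mt-Co1. The copies are Gm29216 (mt-Co1, 483 bases, 99.8% identity), Gm28661 (mt-Co2), Gm10925 (mt-Atp6), Gm28437 (mt-Co3), Gm28438 (mt-Nd3, 345 bases, 99.7%), Gm10222 (mt-Nd4l) and Gm28439 (mt-Nd4). The other 5 match without a mismatch over 294 to 876 bases. Only annotated nuclear transcripts were searched, for matches of at least 100 bases. The tRNA genes, of 59 to 75 bases, could therefore give no match, and whether they have nuclear copies was not tested. The copies held 14.5%, 14.6% and 13.8% of the signal in day 3 controls and 10.7%, 11.9% and 12.5% in lasered retinas. On day 7 they held 1.70%, 2.16% and 1.21% against 0.989%, 4.12% and 0.953%. On both days the copies were placed like the mitochondrial mRNAs, with no overlap on day 3 and lasered replicate 2 above all others on day 7. Since their reads could be counted at either place, this is not an independent observation. The mRNA shares given above depend on that placement and may be understated or overstated.

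**Figure D5:**
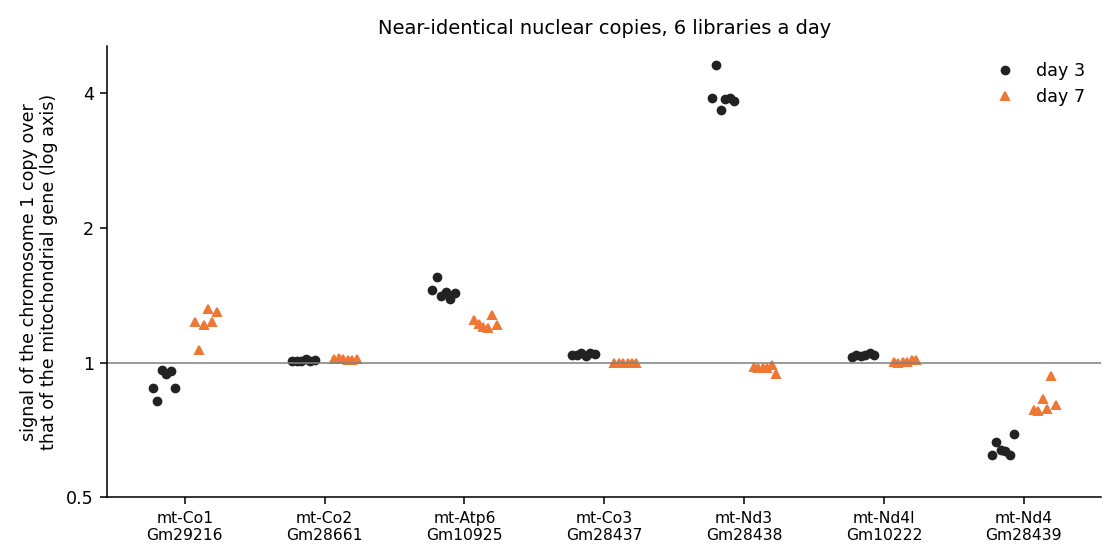
Signal of each near-identical chromosome 1 copy divided by that of its mitochondrial gene (y axis, log scale) for 7 genes (x axis); each symbol is 1 of the 6 libraries of a day, black circles day 3 and orange triangles day 7. For mt-Co2, mt-Co3 and mt-Nd4l the ratio stays between 0.999 and 1.05 in all 12 libraries, and for mt-Nd3 it is 3.66 to 4.61 on day 3 and 0.944 to 0.986 on day 7.

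Gene by gene the copy over the mitochondrial signal was nearly constant within a day. For mt-Co3 it was 1.03 to 1.05 on day 3 and 0.999 to 1.00 on day 7, and for mt-Co2 1.01 to 1.02 on both days. For mt-Atp6 it was 1.39 to 1.55 and 1.20 to 1.28, and for mt-Nd4 0.621 to 0.692 and 0.780 to 0.933. The copy of mt-Nd3, which differs at T3C, had 3.66 to 4.61 times the signal of mt-Nd3 on day 3 and 0.944 to 0.986 times on day 7. The copy of mt-Co1, which differs at A1066T, had 0.820 to 0.963 times and 1.07 to 1.32 times. Of the 6 mRNAs without a near-identical copy among annotated nuclear transcripts, mt-Cytb, mt-Nd1 and mt-Atp8 were lower in all lasered libraries of day 3. The groups of mt-Nd2, mt-Nd5 and mt-Nd6 overlapped. However, mt-Atp8 shares 43 bases with mt-Atp6, which Gm10925 matches without a mismatch, so mt-Atp8 is not free of copied sequence. It lies between mt-Co2 and mt-Atp6, and unannotated bases between their copies Gm28661 and Gm10925 were not searched. The other 10 matches, among annotated nuclear transcripts, had 90.7% to 97.6% identity.

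The nuclear genes that build and serve the same complexes gave no called gene in any of 10 lists on either day. On day 3, 6 of 36 nuclear complex I genes had an unadjusted p under 0.05 with laser higher and 0 with laser lower (median 0.10). Of complex II, which has no mitochondrial subunit, 1 of 4 was higher at that level (median 0.16). Of complex III with cytochrome c 2 of 10 were higher (median 0.06), of complex IV 4 of 11 (median 0.14) and of ATP synthase 6 of 16 (median 0.17), each with 0 lower. All tested genes had a median of 0.16, and 20.7% of them were higher at that level. With mitochondrial mRNAs at -0.52 (complex IV, median of 3) and -0.57 (mt-Cytb), the nuclear subunits of the same complexes lay near the median of all genes. The smallest p-values belonged to Ndufs3 (log2 difference 0.60), Sdhc (0.35), Uqcrc1 (0.63), Cox5b (1.14) and Atp5d (0.96), with limma adjusted p of 0.0883 to 0.179. Cox5b encodes a nuclear subunit of the same oxidase as mt-Co3, and read 74.5 ± 18.7 in controls and 165 ± 36.3 in lasered retinas (SD, n = 3 each).

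Genes that copy and transcribe mitochondrial DNA had a day 3 median of 0.11, with 2 of 16 higher and 1 lower at an unadjusted p under 0.05. Tfb2m, a transcription initiation factor of mitochondrial RNA polymerase, had the smallest p (log2 difference 0.56, limma adjusted p = 0.0931). RNA processing and stability genes had 8 of 25 higher (median 0.17), led by the rRNA methyltransferase Mrm3 (0.86, limma adjusted p = 0.0915). Mitochondrial ribosome genes had 22 of 76 higher and 0 lower (median 0.21), led by Mrps23 (0.82, limma adjusted p = 0.0915). Biogenesis regulators had 0 of 9 either way (median 0.01), with Pprc1 first (0.50). Import, chaperone and outer membrane genes had 2 of 12 higher (median 0.08), led by the chaperone Hspa9 (0.93).

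On day 7 none of the genes in these 10 lists had an unadjusted p under 0.05, and the list medians ran from -0.05 to 0.12, with 0.06 for all genes. The smallest p in each list belonged to Ndufb9 (log2 difference 0.28), Sdhc (0.17), Uqcrc2 (0.20), Cox7a2 (0.26), Atpif1 (-0.28), Mterf1b (0.33), Nsun4 (0.26), Mrps23 (0.20), Esrra (-0.37) and Vdac3 (0.33). Each had a limma adjusted p of 1.0. In lasered replicate 2, whose mitochondrial mRNAs were high, the list sums went both ways. It was the highest library of the day for complex II (783 against 639 to 712 in the others), mtDNA transcription and replication (261 against 215 to 227), RNA processing and stability (645 against 536 to 566) and import, chaperones and outer membrane (2711 against 2182 to 2305). It was the lowest for complex III with cytochrome c (2324), the mitochondrial ribosome (3983) and biogenesis regulators (140). For the nuclear genes of complexes I and IV and of ATP synthase its sum lay within the range of the controls.

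Cell type markers differed as well, and their part in the mitochondrial values was not tested. On day 3, 12 of 14 rod markers and 9 of 9 cone markers had a log2 difference below 0 (medians -0.52 and -0.43), with the cone transducin gene Gnat2 at -1.11. Reactive glia had 2 of 6 genes called higher, Edn2 (4.31) and Gfap (4.45), microglia C1qb (2.82) and Müller glia Crym (2.94), with limma adjusted p of 0.0278 to 0.045. In further lists without a called gene the smallest p belonged to Tfap2b for amacrine and horizontal cells (0.57), Nefl for ganglion cells (0.77), Cd68 for monocytes and macrophages (2.74), S100a8 for neutrophils (4.14), Plvap for endothelium (0.95), Lrat for pigment epithelium (-0.70), Mylpf for skeletal muscle (-0.26), Crygs for lens (2.46) and Hbb-bs for erythrocytes (0.26). Some named genes did not stand for their whole list. Of the ganglion cell markers 3 of 7 lay below 0 (median 0.18), with sums of 505, 785 and 875 in lasered retinas and 770 to 918 in controls. Below 0 were also 2 of 6 amacrine and horizontal cell markers (median 0.17) and 3 of 8 Müller glia markers (median 0.46). Lasered day 3 replicate 1 had the lowest mRNA share and the lowest rod sum. Without it 11 of 13 mRNAs lay below 0, with a median of -0.20.

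On day 7 the rod markers had a median of -0.16 and the cone markers 0.04. Reactive glia had Serpina3n (3.03), Edn2 (3.53) and Gfap (2.40) called higher, microglia 4 genes including C1qa, C1qb and C1qc (1.90 to 1.98), monocytes and macrophages Lyz2 (3.92) and Cd68 (1.62), and Müller glia Crym (1.26). The limma adjusted p of these genes ran from 0.00444 to 0.0419. In further lists the smallest p belonged to Nrl (-0.41), Arr3 (-0.30), Slc32a1 (-0.18), Nefm (-0.56), Csf3r (0.88), Kdr (0.89), Pmel (-1.30), Mylpf (0.09), Cryba1 (2.07) and Hba-a2 (-1.14), none of them called. Kdr stood against its list, in which 5 of 6 endothelial markers lay below 0 (median -0.38), Mylpf against 2 of 3 muscle markers below 0 (median -0.04), and Arr3 against a cone list with 3 of 8 below 0.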

How the data were processed

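The 12 retina libraries were made from poly(A) RNA with a directional kit, per the labels' protocols. Groups and replicate numbers came from the sample titles, and 0 value columns lacked a sample. The authors deposited 1 table per day, with a signal for each gene that they named TPM. Per the submitters' processing notes, mm10, edgeR 3.28.0 and STAR 2.7.0 were used, with no step stated for any of them. How reads were counted, and whether by strand, is not stated in the sources used here, so overlapping genes could not be resolved.

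Multiplying values by union exon lengths of GENCODE M21 (53681 of 54367 genes have the same coordinates) gave whole reads within 0.05 for 99.8% of values under 20 reads, once a factor of 6 values cycling with table position (0.955 to 1.05) was taken out. Undoing that factor was an added alternative.

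Each day was fitted with limma 3.58.1 in R 4.3.3 (trended prior, 2-sided) on log2(signal + 1) in genes whose mean signal reached 1, with Benjamini-Hochberg adjustment over all genes tested and a threshold of 0.05. Fold changes on that scale understate changes of low genes. TPM had been assumed when the test was set, and the same test was kept. The script was tested on simulated data. Same-numbered libraries deviated together on day 7 (correlations 0.484, 0.559 and 0.128 of deviations from the group means). Control replicate 1 with lasered replicate 3 gave 0.205 there, above the lowest of these. On day 3 there was little such correlation. The main fits used no pairing on either day, and a replicate block (a term for replicate number) was run as an alternative. Copies were found with BLAST 2.17.0 among the nuclear transcripts of GENCODE M21 (at least 90% identity over 100 bases). Unannotated sequence was not searched, and the tRNA genes were too short to give a match. Tables and figures were made with matplotlib 3.10.9, NumPy 2.4.6 and pandas 2.3.3 under Python 3.11.15.

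The members and gene lists were chosen with earlier results of these data known. Named by rule are all 13 mRNAs, the 3 tRNA genes of highest mean signal (mt-Tp, mt-Tl1 and mt-Ts1), any tRNA gene past the threshold, and of each other list up to 3 genes past the threshold or the 1 with the smallest p. Other tRNA genes were named after their values were seen. For some marker lists that gene is not reported here. Mitochondrial rRNAs, planned relative to mRNAs, were not analysed here. Intervals and floors cover counting error only.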

Additional observations from a re-analysis of the deposited data

How the results depend on the processing

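The count of mitochondrial genes past the threshold was 0 on each day and for the difference between days, and it stayed at 0 under other pseudocounts, filters, scalings, a joint fit and the cyclic factor undone. Library weights gave 1 on day 7 and 3 for the difference between days, and leaving out 1 library gave 0 on either day and 0 to 1 for the difference. The replicate block also gave 0 on each day and for the difference, with a smallest limma adjusted p of 0.171 on day 3, 0.139 on day 7 and 0.332 for the difference; it changed no other call of a member. On day 3 same-numbered libraries correlated at only 0.0413, 0.0162 and 0.0766. The difference in mRNA share on day 3 was -7.48 points over protein-coding genes and -6.21 without the near-identical copies, and -5.66 to -4.01 with 1 library left out. On day 7 that range was -0.848 to 0.703.

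Of 19 named genes, 309 of 323 alternative values kept direction and call on day 3 and 304 of 322 on day 7; the cause of the reversals was not tested. Keeping a direction does not mean keeping its size: the unreversed mt-Co3 shrank from -0.64 to -0.15 under quantile normalization on day 3. On day 3, quantile normalization reversed mt-Nd2 (0.068), mt-Co2 (0.0958), mt-Atp8 (0.055), mt-Atp6 (0.104), mt-Nd4 (0.049), mt-Nd4l (0.054) and mt-Nd6 (-0.017). mt-Nd6 also reversed with median-of-ratios rescaling (-0.21), equal sums outside chromosome MT (-0.011) and the cyclic factor undone (-0.015). With 1 library left out, mt-Nd6 ran from -0.12 to 0.0967 (reversed without control replicate 2), mt-Nd2 from -0.14 to 0.0195 (lasered replicate 2), mt-Nd3 from -0.22 to 0.058 (control replicate 3) and mt-Nd4l from -0.16 to 0.025 (lasered replicate 1). On day 7, mt-Co3 reversed with quantile normalization (-0.084), median-of-ratios rescaling (-0.032) and library weights (-0.39), mt-Co1 with library weights (0.153) and mt-Nd3 with library weights (0.036). With 1 library left out, mt-Co1 ran from -0.82 to 0.31 (reversed without any library except control replicate 3 or lasered replicate 2), mt-Co3 from -0.71 to 0.52 (control replicate 1, lasered replicate 2) and mt-Nd3 from -0.65 to 0.34 (control replicate 2, lasered replicates 1 and 3). mt-Atp8 ran from -0.23 to 0.47 (control replicate 3, lasered replicate 2) and mt-Nd6 from -0.80 to 0.0006 (lasered replicate 1). Library weights also took mt-Tl1 past the threshold on day 7 (-2.53).

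Depth limits the tRNA genes: 3 reads in 68 bases correspond to a day 3 signal of 6.55 to 8.90 and a day 7 signal of 4.29 to 5.58. The alternatives on mitochondrial rRNAs were not run.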
